A study of Mus musculus with 24 samples.

Results

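Ly6 proteins are small surface proteins held in the cell membrane by a glycosylphosphatidylinositol (GPI) lipid anchor, and several of them are induced by interferon. Ly6a encodes Sca-1, a marker of blood stem cells that is also carried by T cells, and Ly6e encodes a broadly expressed member linked to entry of viruses. Ly6c1 and Ly6c2 encode the near-identical proteins recognised as Ly6C, which marks subsets of monocytes and memory T cells. In T cells, Ly6C and Sca-1 are used to separate resting, activated and memory cells.

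These 4 genes, Ly6a, Ly6e, Ly6c1 and Ly6c2, are 4 of the 24447 genes in a count matrix of single NK1.1+CD3e+ cells from mouse liver. The members were chosen from measured values of these same cells, namely low Ly6a in the cells of CD1d-deficient mice and high Ly6c2 in circulating-like cells, those with transcripts of S1pr1, the receptor that guides lymphocytes out of tissue. Levels by genotype and by S1pr1 are therefore described here without a test, and tests are given only for the split of the cells by the coreceptor genes Cd8a and Cd4, which the choice did not use as a contrast within a pool. The pools differ in how many cells hold Cd8a, so that split is not fully separate from the genotypes.

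The 1735 cells came from WT mice (623 cells), Jα18-deficient mice (725 cells) and CD1d-deficient mice (387 cells), all labelled C57BL/6 and young adults, with no treatment given in the labels. Livers were perfused, leukocytes were enriched on Percoll, and sorted cells were picked by hand; sex and the number of mice per pool are not given in the sources used here. Jα18-deficient mice lack a T cell receptor segment needed by type I NKT cells, and the loss of CD1d removes the molecule on which type I and type II NKT cells are selected. Cells that carry NK1.1 and CD3e without depending on CD1d remain in both. Type I NKT cells without NK1.1 were outside the sort. The labels list 24 libraries, 8 per genotype, but a cell name gives only its genotype, so each genotype was 1 pool with no replicate check. Unless pools are named, values in a row of 3 are given in the order WT, Jα18-deficient, CD1d-deficient.

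Depth was 34102694, 60484252 and 14536585 UMIs (unique molecular identifiers, 1 per captured transcript) over the pools, with medians of 40467, 46670 and 13508 UMIs per cell. Cd1d1, the targeted gene, had 25.0 CPM (UMIs per 1000000 UMIs of the pool) in WT and 15.4 CPM in Jα18-deficient cells, and 0 UMIs in CD1d-deficient cells, which allows up to 0.206 CPM. All 3 T cell markers were present, and together Cd3e, Cd3d and Cd3g reached 3196, 3300 and 3146 CPM. The 7 myeloid markers summed to 87.6, 23.3 and 615 CPM in the same order, of which Lyz2 (lysozyme, a myeloid gene) made up 77.3, 14.7 and 588 CPM. Cd68 had 5.48, 4.28 and 13.3 CPM, with a UMI in 12.5%, 11.6% and 29.5% of the cells, and Csf1r had 3.28, 2.23 and 9.15 CPM. Adgre1 and Itgam were also highest in the CD1d-deficient pool, at 1.72 and 2.41 CPM, while S100a8 was highest in the Jα18-deficient pool and S100a9 was at 0. A Lyz2 UMI was found in 39.5%, 30.9% and 80.4% of the cells, and its part in the differences between pools was not tested except where values without those cells are given.

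The 4 genes lie together on chromosome 15 within 156634 bases (build NCBIM37, mm9). Ly6e, on the plus strand, spans 74785481 to 74790335, and the other members follow on the minus strand, Ly6a at 74825308 to 74828064, Ly6c1 at 74875447 to 74879260 and Ly6c2 at 74938590 to 74942114. Counts were made over the transcripts of each gene, so how far the transcripts can be told apart bears on every value below. Ly6c1 and Ly6c2 share 387 of 396 coding bases (97.7%), whereas Ly6a shares 82.3% of aligned bases with Ly6c1 and 49.1% with Ly6e. The first 300 coding bases of the near-identical pair are printed because 7 of their 9 differences lie there, shown in capitals.
Ly6c1: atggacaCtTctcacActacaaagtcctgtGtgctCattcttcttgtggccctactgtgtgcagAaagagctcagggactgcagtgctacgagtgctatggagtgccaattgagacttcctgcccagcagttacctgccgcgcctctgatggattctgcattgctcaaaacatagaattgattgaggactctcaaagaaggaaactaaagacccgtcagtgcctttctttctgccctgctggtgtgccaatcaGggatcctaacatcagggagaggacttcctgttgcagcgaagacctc
Ly6c2: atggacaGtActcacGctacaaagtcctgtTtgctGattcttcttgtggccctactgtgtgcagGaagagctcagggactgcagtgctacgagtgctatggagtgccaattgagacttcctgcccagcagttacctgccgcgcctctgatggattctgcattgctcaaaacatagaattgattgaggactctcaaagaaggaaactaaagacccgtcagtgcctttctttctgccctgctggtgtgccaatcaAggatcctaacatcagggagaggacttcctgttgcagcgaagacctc

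Counted from 1 at the first coding base, with the base of Ly6c1 first, the differences were C8G, T10A, A16G, G31T, C36G, A65G, G254A, T327C and G376A. The first 6 lie close to the start, and a long identical stretch follows them. Of the windows of 150 bases along the Ly6c1 transcript, 39 of 691 (5.64%) also occur in the Ly6c2 transcript, and of the windows of 50 bases 252 of 791 (31.9%) do. For Ly6a, 3 of 770 windows of 50 bases occur in Ly6c2 and 0 of 770 in Ly6c1 or in Ly6e. How reads that match both Ly6c genes were assigned is not given in the sources used here, so the split between Ly6c1 and Ly6c2 is uncertain while Ly6a and Ly6e stand apart from them.

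Ly6e had the most transcripts in every pool, followed by Ly6a in the WT pool and by Ly6c2 in the other pools. A UMI counts a transcript once whatever its length, so these levels were not scaled by length. Ly6a had 31373 UMIs or 920 CPM in WT cells (exact Poisson 95% interval 910 to 930), 31984 UMIs or 529 CPM (523 to 535) with Jα18 lost and 1807 UMIs or 124 CPM (119 to 130) with CD1d lost. Its 3 levels were well apart, and the CD1d-deficient pool was the lowest. Ly6e stood at 2209 CPM (2193 to 2224), 2278 CPM (2266 to 2290) and 1317 CPM (1299 to 1336) in the same order, so that the first 2 pools were near each other and the CD1d-deficient pool was lower. These intervals cover counting error only and not the spread between mice.

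Of the Ly6C pair, Ly6c1 had 132 CPM (128 to 135), 172 CPM (169 to 176) and 55.4 CPM (51.6 to 59.3). Ly6c2 had 701 CPM (692 to 709), 1616 CPM (1606 to 1626) and 865 CPM (850 to 880). The order of the pools thus differed between members, with the WT pool highest for Ly6a and lowest for Ly6c2, and the CD1d-deficient pool lowest for Ly6a, Ly6e and Ly6c1.

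Relative to the WT pool, Ly6a was 7.40-fold lower in the CD1d-deficient pool (log2 ratio -2.89, 95% counting interval -2.96 to -2.82) and 1.74-fold lower in the Jα18-deficient pool (log2 ratio -0.80). A level at least 2-fold lower in the CD1d-deficient than in the WT pool was found for 2 members, Ly6a and Ly6c1 (log2 ratio -1.25), and for 12.3% of 9447 genes. Against the Jα18-deficient pool the same 2 members were at least 2-fold lower, at log2 ratios of -2.09 for Ly6a and -1.64 for Ly6c1, as were 17.8% of 10042 genes. From WT to Jα18-deficient, 0 members were 2-fold lower, where 7.14% of 10267 genes were, and Ly6c2 alone was 2-fold higher (2.31-fold, log2 ratio 1.21), where 14.0% of genes were. The members were selected on these contrasts, so nothing is read from the counts. Ly6e differed by a log2 ratio of -0.75 between the CD1d-deficient and WT pools, short of 2-fold, and by 0.04 between the Jα18-deficient and WT pools, which became -0.07 with TMM scaling. That scaling shifted all log2 ratios between the latter pools by -0.11 and those involving the CD1d-deficient pool by at most 0.06 in size.

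**Figure D1:**
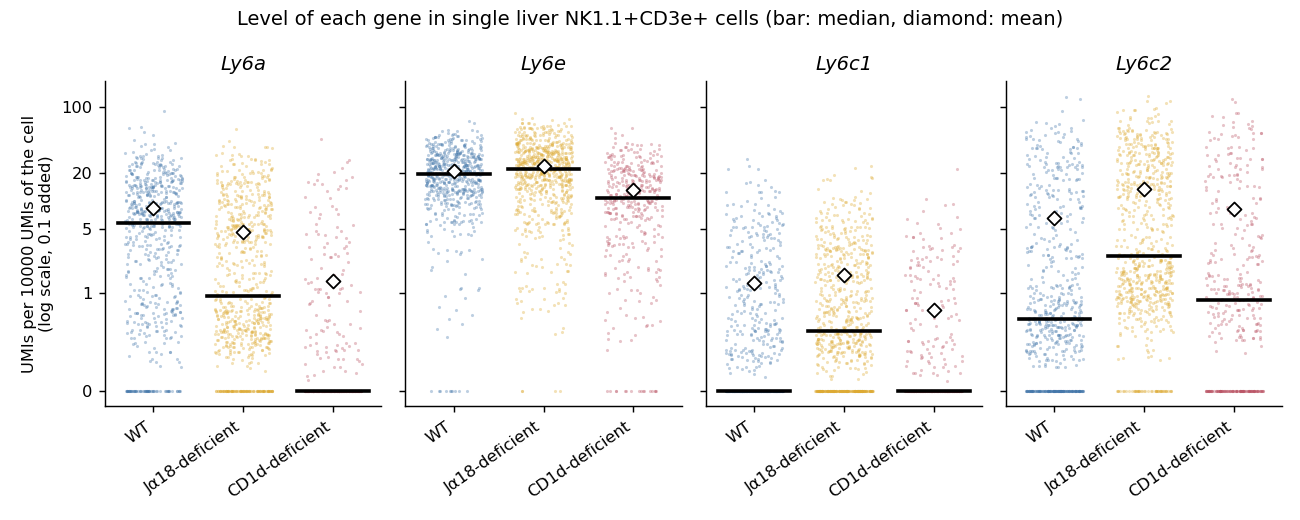
Level of each member in single cells of the 3 pools, in UMIs per 10000 UMIs of the cell on a log scale with 0.1 added. Points are cells, bars medians and diamonds means. Median Ly6a was 5.83 (WT), 0.906 (Jα18-deficient) and 0 (CD1d-deficient), and the highest Ly6c2 cells passed 120 in each pool.

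Within a pool the cells varied widely, and the 4 members did so in different ways. The range of Ly6a over single WT cells ran from 0 through a median of 5.83 to 90.9 UMIs per 10000 UMIs of the cell, and over Jα18-deficient cells from 0 through 0.906 to 57.8. In the CD1d-deficient pool the median cell had 0 and the highest 46.1. Cells with a high level were thus present in all 3 pools, but both their share and the levels reached differed.

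At least 5 Ly6a UMIs per 10000 were held by 340 (54.6%), 216 (29.8%) and 28 (7.24%) cells. Ranked here and below by their UMIs of the gene, with no scaling for depth, the top 10% of the cells held 53.7%, 74.6% and 93.6% of a pool's Ly6a UMIs. Ly6a transcripts of the CD1d-deficient pool therefore came from few cells, and the part of uneven depth in these shares was not tested.

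A Ly6a UMI was found in 90.4% (exact Clopper-Pearson 95% bounds of 87.8 and 92.6%), 86.8% (84.1 to 89.1%) and 32.3% (27.7 to 37.2%) of the cells. With each cell thinned to 10000 UMIs, which left 523, 632 and 227 cells, these shares were 81.6%, 61.9% and 19.4%. The order stayed, with a wider gap between the WT and Jα18-deficient pools. No cell type in the matrix is known to lack Ly6a, so a background share could not be given, but Lyz2, which T cells are not known to use, had a UMI in most cells of the CD1d-deficient pool.

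Ly6e was the most even member. It had a UMI in 98.4%, 99.4% and 95.9% of the cells, and its median was 19.7, 21.8 and 10.9 UMIs per 10000. Its top 10% of cells held 39.3%, 43.7% and 56.3% of its UMIs, the smallest shares among the members.

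Ly6c2 was uneven in all pools. The median cell had 0.485, 2.59 and 0.809 UMIs per 10000, against maxima of 128, 131 and 122. At least 5 per 10000 were held by 24.6%, 44.1% and 26.1% of cells, and the top 10% of the cells held 77.8%, 69.6% and 82.7% of the UMIs. A Ly6c2 UMI was found in 75.6%, 93.7% and 69.0% of cells, or 51.1%, 79.0% and 63.0% after thinning, where the CD1d-deficient pool stood above the WT pool. Thinning both evened depth and left out the cells below 10000 UMIs. Ly6c1 was found in 48.0%, 73.1% and 35.7% of cells, and its highest cells had 28.0, 23.6 and 22.2 per 10000.

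Cells were next divided by whether they held a UMI of Cd8a, which encodes the CD8α coreceptor, and of S1pr1. A Cd8a UMI was found in 97, 324 and 234 cells, and an S1pr1 UMI in 37, 113 and 38 cells. In cells with neither, Ly6a had 926, 549 and 147 CPM, so the order of the pools was that of all cells. In cells with Cd8a alone it had 907, 514 and 127 CPM, and in cells with S1pr1 alone 1095, 353 and 182 CPM. The cells with both were the exception, with 37.3 CPM over 6 WT cells, 628 CPM over 57 Jα18-deficient and 38.2 CPM over 20 CD1d-deficient ones. There the WT and CD1d-deficient pools did not differ beyond their counting intervals (21.3 to 60.6 and 28.3 to 50.3 CPM).

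When the levels in the 4 classes were weighted by the WT shares of cells, mean Ly6a was 5.17-fold lower in the CD1d-deficient than in the WT pool, against 6.35-fold for the plain mean over cells. Without the cells that held a Lyz2 UMI, which left 377, 501 and 76 cells, Ly6a had 968, 546 and 225 CPM. The level in the CD1d-deficient pool was thus lower than in the WT pool in each of these views, with the gap narrowed to a log2 ratio of -2.10 in the last. Those 76 cells had a median depth of 5758 UMIs and were shallower than the rest.

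**Figure D2:**
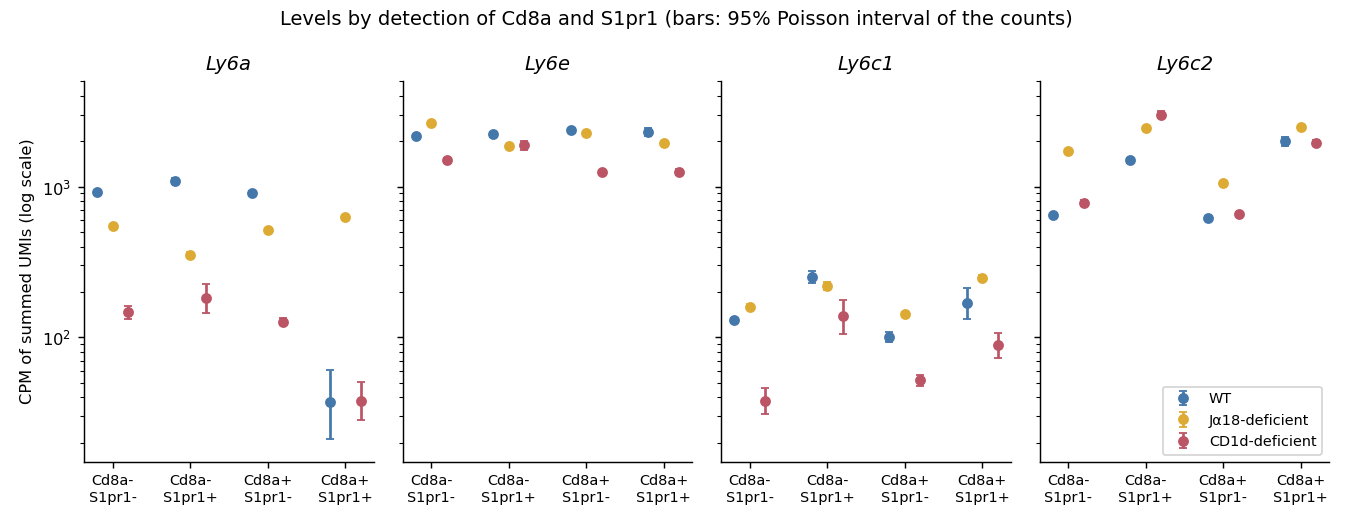
CPM of each member in cells with (+) and without (-) a UMI of Cd8a and S1pr1, on a log scale, with 1 point per pool and exact Poisson 95% intervals of the counts. Ly6a was lowest in the CD1d-deficient pool in 3 classes, and Ly6c2 was higher in both S1pr1+ classes than in the matching S1pr1- class of every pool.

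Ly6c2 was higher in the cells with S1pr1, the split on which it was chosen. Its level was 1588 CPM in S1pr1+ and 640 CPM in S1pr1- WT cells, 2480 and 1321 CPM with Jα18 lost, and 2207 and 682 CPM with CD1d lost. All 3 pools showed the same order, with log2 ratios of 1.31, 0.91 and 1.69 (mean 1.31 ± 0.39, SD, n = 3 pools). Ly6c1 followed with log2 ratios of 0.92, 0.67 and 1.04, while Ly6e (0.02, -0.34 and 0.11) and Ly6a (-0.06, 0.01 and -0.83) had no common direction. By this detection 0 members were at least 2-fold higher in all pools, where 0.370% of 9187 genes were.

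With S1pr1 at or above 1 UMI per 10000, a stricter class added after the data were seen (24, 44 and 26 cells), Ly6c2 had 2289, 3545 and 3783 CPM against 637, 1474 and 689 CPM in the other cells. Ly6c2 was then the 1 member at least 2-fold higher in all pools (3.59-, 2.40- and 5.49-fold), as were 0.501% of genes. Ly6a was lower in these cells in each pool, at log2 ratios of -0.51, -1.08 and -1.14. The 2 members thus differed in opposite directions across this split.

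The level of Ly6c2 did not climb evenly with the S1pr1 count. Cells with exactly 1 S1pr1 UMI had 462 CPM of Ly6c2 in the WT pool and 560 CPM in the CD1d-deficient pool, below the 640 and 682 CPM of cells with none, while the Jα18-deficient pool had 1874 CPM against 1321 CPM. Cells with at least 5 S1pr1 UMIs had 2266, 3914 and 3525 CPM, the top of the range in each. Single S1pr1 UMIs occurred in 13, 57 and 14 cells.

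Ly6a was lower where Cd8a was abundant but not where a single Cd8a UMI was detected. In the planned comparison, cells with any Cd8a UMI against none, edgeR (quasi-likelihood test, p-values adjusted by Benjamini-Hochberg) called 0 of the 4 members over 3 pools. The log2 fold change was -0.13 (SE 0.14, adjusted p = 0.999) for Ly6a and -0.26 (SE 0.12) for Ly6c2, the 1 member with an unadjusted p below 0.05 in edgeR. That test called 8 of 10440 genes (0.0766%), each higher, and 498 genes had an unadjusted p under 0.05. With DESeq2 46 genes and 0 members were called. The called genes were Gzma and Gzmb (granzymes that kill target cells), Tyrobp and Fcer1g (signalling adaptors of NK receptors), Ccl5 and Xcl1 (chemokines), Cd7 and Gpr18.

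Most Cd8a+ cells of the WT pool rested on few transcripts. Of the 97 cells, 61 had exactly 1 Cd8a UMI, and they were deeper, at a median of 67464 UMIs, than the 526 cells with none, at 38266 UMIs. Ly6a had 936 CPM in WT cells with 0 Cd8a UMIs, 1083 CPM with exactly 1, 1380 CPM in the 6 cells with 2 to 4, and 119 CPM in the 30 cells with at least 5. In the Jα18-deficient pool these levels were 504, 827, 596 and 92.3 CPM, and in the CD1d-deficient pool 152, 148, 220 and 38.4 CPM. The drop came in the band of 5 or more UMIs in all 3 pools, and the bands below it held levels near or above those of cells without Cd8a.

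**Figure D3:**
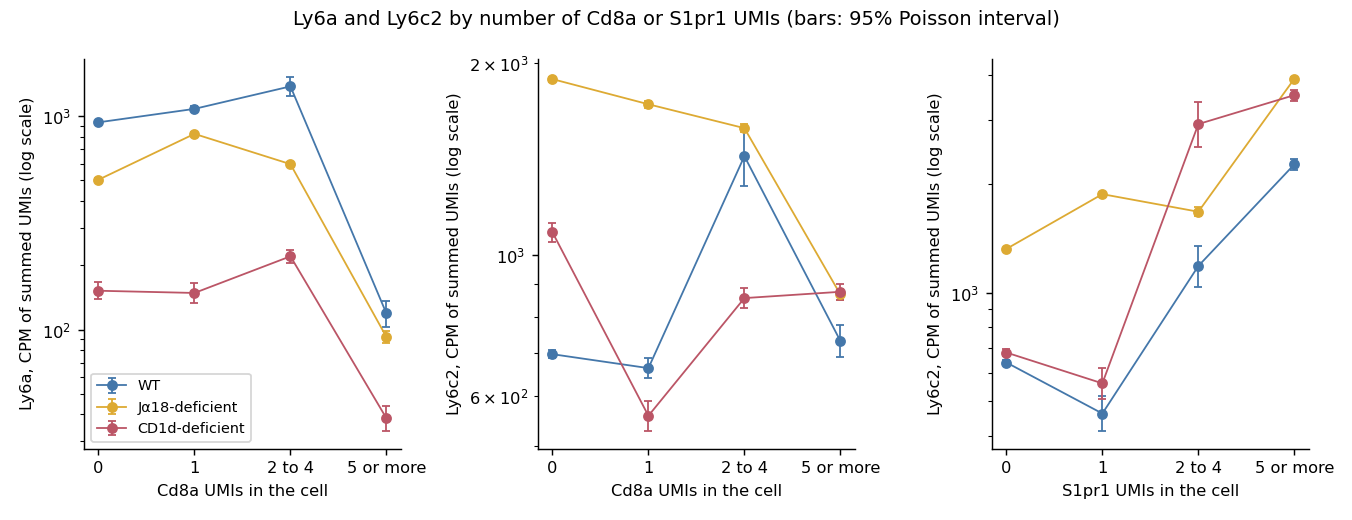
CPM of Ly6a by Cd8a UMIs per cell (left), of Ly6c2 by Cd8a UMIs (middle) and of Ly6c2 by S1pr1 UMIs (right), on log scales, with 1 line per pool and exact Poisson 95% intervals. Ly6a was at 119, 92.3 and 38.4 CPM in cells with 5 or more Cd8a UMIs, and Ly6c2 was highest in cells with 5 or more S1pr1 UMIs of each pool.

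The split was also made at 1 Cd8a UMI per 10000, a limit set after Ly6a was seen to be low in the cells with most Cd8a, so its values for Ly6a describe that observation again and are given with no p. It gave 35, 124 and 162 cells. Ly6a had 120 CPM in them against 962 CPM in the other cells of the WT pool, 92.5 against 597 CPM in the Jα18-deficient pool, and 48.5 against 173 CPM in the CD1d-deficient pool. Ly6a was thus lower in the first class of each pool, the observation after which the limit was set. Fitted over the pools, the log2 fold change of Ly6a was -2.40 (SE 0.26), and -2.39 with at least 5 Cd8a UMIs against none, the band in which the low level had been seen. Both limits were added after the data were seen. Planned settings gave smaller values, and none was called. The largest were -0.82 with at least 2 UMIs (edgeR adjusted p = 0.426) and -0.93 in thinned cells (adjusted p = 0.059), beside the -0.13 of the planned split. The rest lay nearer that split, at -0.13 in DESeq2 and with no filter on low counts. Ly6a was at -0.055 without the pool term and -0.089 within the stated depth filter. With a pool left out it ran from -0.24 to 0.0035. The study also picked Ly6a and Cd8a as markers from these same cells, and then stained their proteins, Sca-1 and CD8α, in liver NKT cells of WT mice.

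At 1 Cd8a UMI per 10000, 5 of 9745 genes (0.0513%) passed edgeR's adjusted threshold, and 620 had an unadjusted p under 0.05. Ly6a was 1 of the 5, and nothing is read from its call, while the others were higher, namely Gzmb, Tyrobp, Cd160 (a GPI-anchored NK receptor) and AW112010. Without the WT pool 0 genes passed (561 at an unadjusted p under 0.05), and Ly6a was then at -2.18.

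The other members did not pass the test at this limit. Ly6c1 had 30.5 against 137 CPM in the WT pool, 50.5 against 191 CPM in the Jα18-deficient pool and 45.0 against 62.1 CPM in the CD1d-deficient pool, a log2 fold change of -1.41 (SE 0.42, edgeR adjusted p = 0.421). Its adjusted p was 0.051 in DESeq2. Without the CD1d-deficient pool edgeR called it at -1.94 (adjusted p = 0.00555), in a fit that called 103 of 10628 genes. It was not called without the WT pool (-1.12, edgeR adjusted p = 0.881) or without the Jα18-deficient pool (-1.19, edgeR adjusted p = 0.988). Ly6e (log2 fold change -0.33, edgeR adjusted p = 0.767) and Ly6c2 (-0.46, adjusted p = 0.868) had smaller estimates. Ly6c2 was 713 against 700 CPM in the WT pool and 818 against 895 CPM in the CD1d-deficient pool, but 566 against 1780 CPM in the Jα18-deficient pool, so its difference rested on that pool.

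Of the lists drawn up for liver-resident NKT cells and for resting T cells, 0 genes passed the adjusted threshold in the same split, while 620 of 9745 genes of any kind had an unadjusted p under 0.05. Of 12 liver-resident NKT genes 11 were tested and 0 called, with 7 lower and 1 higher at an unadjusted p under 0.05 and a median log2 fold change of -1.53, against -0.09 over all genes tested. Examples were Il4, a cytokine of NKT cells (-2.97, edgeR adjusted p = 0.0502), the chemokine receptor gene Ccr2 (-2.17, adjusted p = 0.0813) and the costimulatory receptors Cd28 (-1.51, adjusted p = 0.0948) and Icos (-1.85, adjusted p = 0.112). The study named genes of both lists from these same cells, Il4, Ccr2, Icos, Cd28 and Il7r among them, so neither list is independent evidence of its direction. It also measured the proteins of Icos and Il7r by flow cytometry, in subsets separated by Sca-1 and another surface protein. All 12 resting and recirculating genes were tested and 0 called, with 5 lower at an unadjusted p under 0.05 and a median of -1.18, among them Il7r, the survival cytokine receptor (-1.24, edgeR adjusted p = 0.0813), and Satb1, a chromatin organiser (-1.81, adjusted p = 0.0948).

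Among genes of other GPI-anchored proteins and of the anchor itself, 0 were called lower in this split. Of 15 GPI-anchored lymphocyte genes 10 were tested, 1 was called higher (Cd160, log2 fold change 1.20, edgeR adjusted p = 0.0307) and the median was -0.12. Of 26 genes that build or attach the anchor 20 were tested, 0 were called and the median was -0.05, with 1 higher at an unadjusted p under 0.05 (Pigp, 1.12, edgeR adjusted p = 0.361). Of 29 interferon-stimulated genes all were tested and 0 called, with 2 higher (Irf7, 0.86, and Irf9, 0.89), 1 lower (Igtp, -0.76) at an unadjusted p under 0.05 and a median of -0.13. Myeloid Lyz2 was at 0.47 (edgeR adjusted p = 0.83), higher in 3 of 3 pools, with 4 of 7 myeloid markers tested and 0 called. All 3 NK receptor genes were tested and 0 called, at 1.09 for Klrd1, 0.54 for Klrb1c and 0.13 for Klrk1, the last higher in 1 of 3 pools. Of 4 B cell markers 1 was tested, Cd79b, which was at 4.05 (edgeR adjusted p = 0.164) and higher in 3 of 3 pools, and of 7 endothelial markers 1, Pecam1, at -3.24 (adjusted p = 0.709). The part of these cell types in the values of this split was not tested.

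In the planned split at any Cd8a UMI, 0 genes of these lists were called. The medians were 0.06 for 11 GPI-anchored genes, 0.17 for 21 genes of the anchor pathway, 0.11 for 29 interferon-stimulated genes, -0.30 for 12 resting genes and -0.28 for 12 liver-resident NKT genes, against -0.01 over all genes tested. At an unadjusted p under 0.05, 1, 1, 0, 0 and 1 of these lists' genes were higher and 0, 0, 1, 2 and 4 lower. The lower genes included Ccr2 (-0.93, edgeR adjusted p = 0.247) and Il7r (-0.63, adjusted p = 0.542). The higher gene of the liver-resident NKT list was Rgs1 (0.54, edgeR adjusted p = 0.668), in 3 of 3 pools.

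Cd4, the coreceptor of helper T cells and of many NKT cells, gave the other tested split, among cells with no Cd8a UMI. It set 188, 104 and 8 cells with a Cd4 UMI against 338, 297 and 145 without. Ly6a had 1006 against 866 CPM in the WT pool, 555 against 474 CPM in the Jα18-deficient pool and 94.2 against 154 CPM in the CD1d-deficient pool, with no common direction. Ly6e was higher in Cd4+ cells of the WT and CD1d-deficient pools, at 2233 against 2107 CPM and 2948 against 1503 CPM, and near equal in the Jα18-deficient pool, at 2423 against 2476 CPM.

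Of the members 0 were called in this split by edgeR, beside 4 of 9696 genes (0.0413%), with 262 genes and 0 members at an unadjusted p under 0.05. By DESeq2, 3 genes and 0 members were called. The log2 fold changes were -0.02 (SE 0.32) for Ly6a, 0.32 (SE 0.17) for Ly6e, 0.56 (SE 0.55) for Ly6c1 and 0.12 (SE 0.21) for Ly6c2, each with an edgeR adjusted p of 0.998. Those that passed were lower in Cd4+ cells, namely Gzma, Ccl5, Cd7 and S100a6, a calcium-binding protein. In the lists for GPI-anchored, anchor pathway, interferon-stimulated and liver-resident NKT genes 0 genes had an unadjusted p under 0.05, and in the resting list 2 were lower, the lymph node homing receptor Ccr7 (-4.15) and the transcription factor Klf2 (-1.86), with an edgeR adjusted p of 0.998. The 8 cells of the CD1d-deficient pool limit this split.

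Cells that held much Ly6a also differed from the rest of their pool in other genes, described here with bands set after the data were seen. In the CD1d-deficient pool the 28 cells with at least 5 Ly6a UMIs per 10000 had 3761 CPM summed over the liver-resident NKT list, against 2024 CPM in the 262 cells with no Ly6a UMI. The WT pool had 4348 against 3009 CPM and the Jα18-deficient pool 3106 against 1814 CPM, so the list was higher in high-Ly6a cells of each pool. Interferon-stimulated genes summed to 6446 against 4168 CPM in the CD1d-deficient pool, 5462 against 3569 in the WT pool and 4541 against 3360 in the Jα18-deficient pool.

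NK receptor genes went the other way, at 2582 against 3438 CPM in the CD1d-deficient pool, 1576 against 2621 in the WT pool and 1764 against 3060 in the Jα18-deficient pool. A Cd8a level of at least 1 UMI per 10000 was found in 0.882%, 6.94% and 17.9% of the high-Ly6a cells, and in 10%, 25% and 46.6% of the cells with no Ly6a UMI. The latter cells were shallower in the WT pool, with a median of 5712 UMIs against 43814, and in the Jα18-deficient pool, with 18532.5 against 47367.5. In the CD1d-deficient pool the medians were 11841.5 against 10014 UMIs. Lyz2 was detected in 64.3% of the high-Ly6a cells of the CD1d-deficient pool and in 77.9% of those with no Ly6a UMI.

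Cells were grouped by Ly6c2 in the same way. Those with no Ly6c2 UMI were shallower in each pool than those with at least 5 per 10000. Their median depths were 17686, 14799 and 6109 UMIs against 40169, 50096 and 18829 UMIs. In the Jα18-deficient pool 46 cells had no Ly6c2 UMI. The part of depth in the differences between these bands was not tested. Cells with at least 5 Ly6c2 UMIs per 10000 had 1200, 1394 and 1647 CPM over the resting and recirculating list, against 1058, 978 and 502 CPM in cells with no Ly6c2 UMI, a small gap in the WT pool and the widest in the CD1d-deficient pool. The liver-resident NKT list had 3505, 2210 and 2034 against 4029, 1981 and 1916 CPM, and the NK receptor list 2257, 2611 and 2910 against 1899, 2444 and 3159 CPM, with no common direction. Interferon-stimulated genes had 5540, 4204 and 4334 against 4800, 3884 and 4308 CPM, and myeloid markers 113, 19.7 and 678 against 56.2, 1.22 and 423 CPM. Both were higher in the high-Ly6c2 cells of each pool than in cells with no Ly6c2 UMI. Cells between these bands had 5090, 4106 and 4404 CPM of interferon-stimulated genes and 84.5, 27.1 and 615 CPM of myeloid markers. They thus stood above the high-Ly6c2 cells for the former in the CD1d-deficient pool and for the latter in the Jα18-deficient pool. S1pr1, one of the genes behind the choice of the members, belongs to the resting list. S1pr1 at 1 or more per 10000 was found in 11.8%, 11.3% and 21.8% of the high-Ly6c2 cells and in 1.32%, 2.17% and 3.33% of those with no Ly6c2 UMI, a description of the split that chose the gene.

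Of the 6 pairs of members, Ly6c1 and Ly6c2 had the highest rank correlation over cells in each pool. Over cells thinned to 10000 UMIs, which share depth by construction and library preparation within a pool, Spearman's rho between them was 0.40, 0.54 and 0.44 (523, 632 and 227 cells). For Ly6a and Ly6e it was 0.20, 0.27 and 0.21, and for Ly6a and Ly6c2 -0.05, 0.02 and -0.07. These are descriptions over cells and not over animals.

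In cells with at least 50 UMIs of the pair, Ly6c1 made up a median of 6.67%, 6.88% and 3.45% of them (121, 240 and 48 cells). That share ran from 0 to 100% over the WT cells, from 0 to 97.2% over the Jα18-deficient cells and from 0 to 61.2% over the CD1d-deficient cells. Ly6c1 was the larger part in 20, 12 and 1 of these cells. As counted, the split of the pair thus varied from cell to cell within each pool. How reads matching both genes were assigned is not known. Its part in these shares and in the correlation of the pair was not tested.

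**Figure D4:**
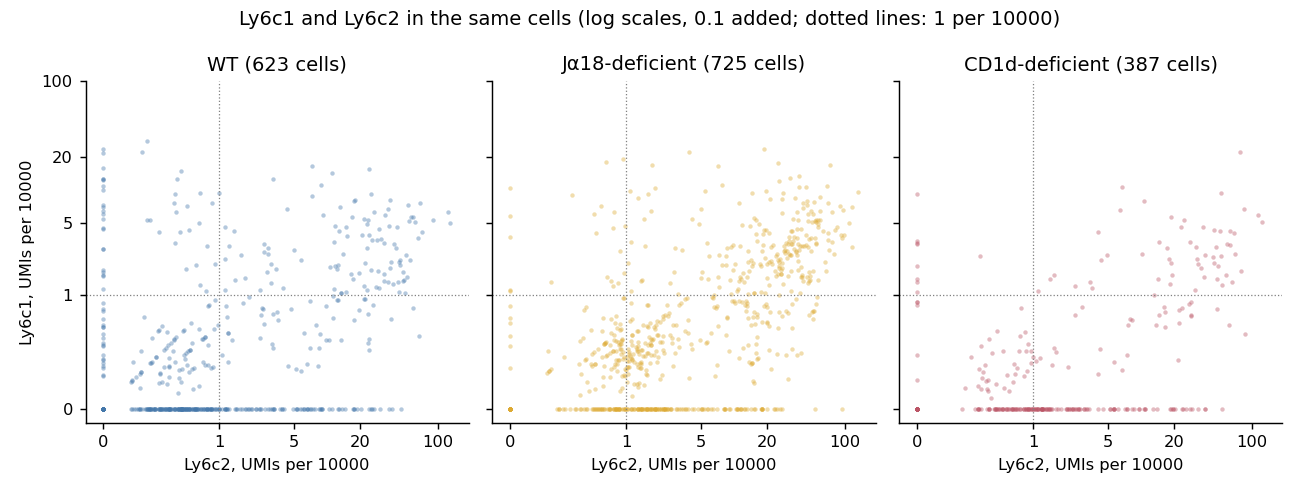
Ly6c1 against Ly6c2 in single cells of each pool, in UMIs per 10000 on log scales with 0.1 added, where each point is a cell and dotted lines mark 1 per 10000. Most cells with high Ly6c1 also hold Ly6c2, with Spearman's rho of 0.40, 0.54 and 0.44 in thinned cells, and a few WT cells hold Ly6c1 with Ly6c2 at 0.

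RefSeq windows of the 250 bases before a transcript start (build GRCm38.p6) were found for 2 of the 4 members, and the first window of each is printed because these 2 genes differed in the same direction between S1pr1+ and S1pr1- cells. The window of Ly6c1 is chr15:75048838-75049087 and that of Ly6c2 is chr15:75111972-75112221, both on the minus strand, and capitals mark a TATAAA motif.
Ly6c1: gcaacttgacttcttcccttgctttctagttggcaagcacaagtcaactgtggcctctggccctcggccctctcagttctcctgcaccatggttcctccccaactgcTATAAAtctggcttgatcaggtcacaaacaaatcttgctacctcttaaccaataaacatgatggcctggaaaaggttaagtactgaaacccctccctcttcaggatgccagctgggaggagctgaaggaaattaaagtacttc
Ly6c2: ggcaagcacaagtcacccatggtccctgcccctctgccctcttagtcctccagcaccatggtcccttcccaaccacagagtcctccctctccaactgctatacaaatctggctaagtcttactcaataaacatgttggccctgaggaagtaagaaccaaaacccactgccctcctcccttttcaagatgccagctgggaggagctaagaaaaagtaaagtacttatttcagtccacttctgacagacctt

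In a local alignment, which can leave out the ends, the 2 windows had 165 identical bases, 25 mismatches and 62 gap bases. The motif TATAAA, searched on both strands, occurred 1 time in the Ly6c1 window and 0 times in that of Ly6c2, and in 12.4% of 32851 windows of the same length. TTCNNNGAA, a motif of STAT factors, and the core of interferon-stimulated response elements, GAAA and GAAA with 2 bases of any kind between, occurred 0 times in both, and in 7.02% and 2.98% of all windows. No match says only that these letters are not in these windows. A second window of each gene, not printed, had 0 matches of these motifs, TATAAA included.

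Other genes of the family were scarce in these cells. Of 25 further Ly6 and related genes, all with a row in the matrix, 16 had 0 UMIs in all pools, among them Ly6g, the neutrophil marker, and 4 had at least 100 UMIs. Ly6g5b was the most abundant of these with 8294 UMIs, or 105, 67.4 and 43.2 CPM, all below Ly6a in the same pools. Lypd6b had 604 UMIs (7.24, 3.39 and 10.5 CPM), Ly6k 141 UMIs and Plaur, the urokinase receptor, 138 UMIs. In the tested splits 0 of these genes were called, among 4 tested for any Cd8a UMI, 2 for 1 Cd8a UMI per 10000 and 3 for Cd4.

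Likeness of pattern was measured as Pearson's r of log2(CPM + 1) with each member over the 12 sums of 3 pools by 4 classes of Cd8a and S1pr1 detection, among 6792 genes, and is a description of sums that share pools and depth. Ttc32 (r = 0.96) and Msrb2 (0.94) were nearest to Ly6a, followed by A630023P12Rik, Art2a-ps and Zmiz2 (each 0.90). Art2a-ps had 60.2, 15.7 and 1.79 CPM. For Ly6c2 the nearest was Klf2, which encodes a factor of lymphocyte recirculation (r = 0.87, at 14.5, 51.0 and 27.9 CPM), then Kif3b, Ube2d2a, Emb and Sfr1, down to 0.83.

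Ly6e was nearest to Polr2j, a subunit of RNA polymerase II (r = 0.91), Rpl37a, Mast3, Atp5b and Rpl5 (0.84). Ly6c1 was nearest to 2810474O19Rik (0.85), the ribosomal protein genes Rps19, Rpl28 and Rpl17, and Satb1 (0.82). Between members, r was 0.62 for Ly6c1 and Ly6c2, 0.63 for Ly6e and Ly6c1, 0.59 for Ly6a and Ly6e and -0.26 for Ly6a and Ly6c2.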

How the data were processed

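Cells were sorted by the study as NK1.1+CD3e+ from perfused livers and picked by hand. What the authors deposited is 1 table of UMI counts, genes by cells, in whole numbers with no normalization. According to their methods, the authors trimmed reads with Cutadapt 1.15, split them by cell barcode, aligned 1 read of each pair to the mm9 transcriptome with TopHat 2.0.12, removed duplicate UMIs and counted with HTSeq 0.10.0. They state a filter of more than 500 genes and 10000 to 600000 transcripts, yet 353 of the 1735 cells are below 10000 UMIs and all were kept. Of all cells 0 had the same counts as another.

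Members and lists were chosen with earlier results of these data known. Cells were assigned to genotypes by name prefix. Genotypes and the split by S1pr1 were described with exact Poisson (counts) and Clopper-Pearson (shares) 95% intervals, and a count of 0 with a limit of 3 counts. Intervals cover counting error only, and UMIs of 1 cell are not independent cells. For Cd8a and Cd4, counts were summed per pool and class and tested with edgeR 4.0.16 (R 4.3.3; TMM, filterByExpr, terms for class and pool, quasi-likelihood test, Benjamini-Hochberg adjustment over all genes tested, threshold 0.05). Replicates were the 3 pools of different genotypes, whose spread includes the genotype and no animals. Named were the members, the family genes with at least 100 UMIs, the 5 genes nearest each member (at least 300 UMIs and a UMI in 10% of the cells of a pool) and up to 4 genes of lowest p per list; called genes and the bands were named after their values were seen.

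Alternatives were DESeq2 1.42.0, no filter, no pool term, each pool left out, at least 2 UMIs, thinned cells, cells within the stated filter, means over cells, TMM scaling and class-standardised levels. Added after the data were seen were limits of 5 UMIs and of 1 UMI per 10000 and cells without Lyz2. The fit was tested on simulated data. Positions are from NCBIM37, and promoter windows from RefSeq. Tables were made with Python 3.11.15, scipy 1.17.1 and Biopython 1.88 and figures with matplotlib 3.10.9. Protein sequences were not used here, and 1 further split of the cells is not reported here.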

Additional observations from a re-analysis of the deposited data

Results flagged for a closer look

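In 5 comparisons of detection, 2 pools had log2 ratios of opposite sign for the same split of their cells, each with a 95% counting interval that left out 0. None of these differences between pools was tested, because each genotype is 1 pool.

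For Ly6a and detection of Cd8a, the log2 ratio was 0.11 with Jα18 lost and -0.38 with CD1d lost, 0.49 apart. For Ly6e it was 0.11 in the CD1d-deficient and -0.34 in the Jα18-deficient pool by S1pr1, 0.44 apart, and 0.13 in the WT and -0.31 in the CD1d-deficient pool by Cd8a, 0.43 apart. Among cells without Cd8a, the split by Cd4 gave 0.97 in the CD1d-deficient and -0.03 in the Jα18-deficient pool for Ly6e, 1.0 apart, and 0.80 in the CD1d-deficient and -0.47 in the WT pool for Ly6c2, 1.27 apart. The last 2 values rest on 8 Cd4+ cells of the CD1d-deficient pool.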

How the results depend on the processing

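No paired analysis was possible by library or replicate, because cell names carry no library or replicate number. In the main fits, classes of cells were still compared within each pool, through the pool term. The genes called by any Cd8a UMI were 8 in edgeR, 46 in DESeq2, 43 without a filter on low counts, 0 without the pool term (335 at an unadjusted p under 0.05), 5 within the stated depth filter, 34 with at least 5 UMIs, 5 at 1 UMI per 10000 and 158 at that limit in DESeq2. Leaving out a pool gave 10 to 32, and 0 to 103 at 1 UMI per 10000, with 0 without the WT pool and 103 without the CD1d-deficient pool. By Cd4 they were 4 in edgeR, 0 without the pool term (353 at an unadjusted p under 0.05), 1 in thinned cells, 1 within the stated filter and 1 to 6 with a pool left out, the 1 being without the WT pool.

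The direction turned for uncalled fold changes near 0. In the Cd8a split, Ly6a was 0.0035 without the CD1d-deficient pool (from -0.24 with others left out), Ly6c1 was 0.011 without the WT pool (from -0.19), and Ly6c2 at 1 UMI per 10000 was 0.062 without the Jα18-deficient pool (from -0.81). In the Cd4 split, Ly6a was 0.24 without the pool term, 0.093 with at least 2 UMIs, 0.28 at 1 UMI per 10000 and -0.26 to 0.30 with a pool left out. Ly6c2 was -0.22 in thinned cells, -0.23 with at least 5 UMIs, -0.18 at 1 UMI per 10000 and -0.12 to 0.37 with a pool left out. The cause was not tested. Of the other fold changes 87 kept direction and side of the threshold and 6 passed it. Those 6 were of Ly6a and Ly6c1 in the Cd8a split, all at limits added after the data were seen. Nothing is read from them, and no planned setting called a member.

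The log2 ratio of Ly6a between the CD1d-deficient and WT pools was -2.89, and -2.67 as a mean over cells, -2.98 in thinned cells, -2.37 with classes at WT shares and -2.10 without cells holding Lyz2. That of Ly6c2 by S1pr1 was 1.31, and 1.83 in thinned cells, 1.86 at 1 UMI per 10000 and 1.11 to 1.5 with a pool left out. Depth limits shares in the CD1d-deficient pool, and 3 pools limit each test.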
